A study of Mus musculus with 4 samples.

Results

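The 10 early genes Egr1, Egr2, Egr3, Egr4, Nr4a1, Nr4a2, Nr4a3, Npas4, Klf4 and Arc were examined in a map of TOP2B cleavage complexes from cultured mouse cortical neurons. They were followed as named genes, and a peak of the deposited list was assigned to a gene when its summit lay in the gene's GRCm38 span or within 50 kb of it. That rule gave 28 entries of the 35539 in the list, and each of the 10 genes had at least 1. The neurons were dissociated from wild-type Swiss-Webster embryos at embryonic day 16 and kept in culture, so the map describes these cultures and not the cortex itself. Etoposide, dissolved in DMSO, was added at 50 µM for 30 min in every sample. The labels describe 2 libraries of native TOP2B immunoprecipitation (ChIP) and 2 of input DNA taken from the same lysates before precipitation, both from etoposide-treated neurons. The deposited list is pooled, so a value below is 1 number without a standard deviation, and it cannot be compared with an untreated culture. The cell type could not be checked against marker genes, since a list of binding peaks holds no expression.

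TOP2B passes one DNA duplex through a transient double-strand break in another and is joined to the cut ends while the break is open. Etoposide slows the resealing of that break, which lets the joined intermediate be recovered with an antibody against TOP2B. The 10 genes belong to the immediate early response, the set of genes that neurons transcribe within minutes of synaptic activity without making new protein first. Egr1 to Egr4 encode zinc finger transcription factors, and Nr4a1 to Nr4a3 encode orphan nuclear receptors. Npas4 encodes a bHLH-PAS factor induced by calcium influx, and Klf4 a Krüppel-like zinc finger factor. Arc encodes a postsynaptic protein that acts in the endocytosis of AMPA receptors.

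The list held TOP2B peaks near each of these genes, most of them outside the gene and of low enrichment. All 10 had an entry in the gene or within 50 kb, as did 80.6% of the 21631 protein-coding genes on the 19 autosomes and X. Npas4 had the most, with 5 entries. Egr1, Egr4 and Nr4a3 had 4 each, Egr2 and Arc 3 each, Nr4a1 had 2, and Egr3, Nr4a2 and Klf4 had 1 each. A summit lay inside the span of 4 of the 10 genes (Egr2, Nr4a3, Npas4 and Klf4), against 36.6% of protein-coding genes. Of the 28 summits, 4 were thus inside one of the 10 genes, 11 lay only in another listed gene and 13 lay outside every listed gene. In all, 15 of the 28 (53.6%) were in some listed gene, against 57.2% of the 35505 entries on the chromosomes.

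**Figure D1:**
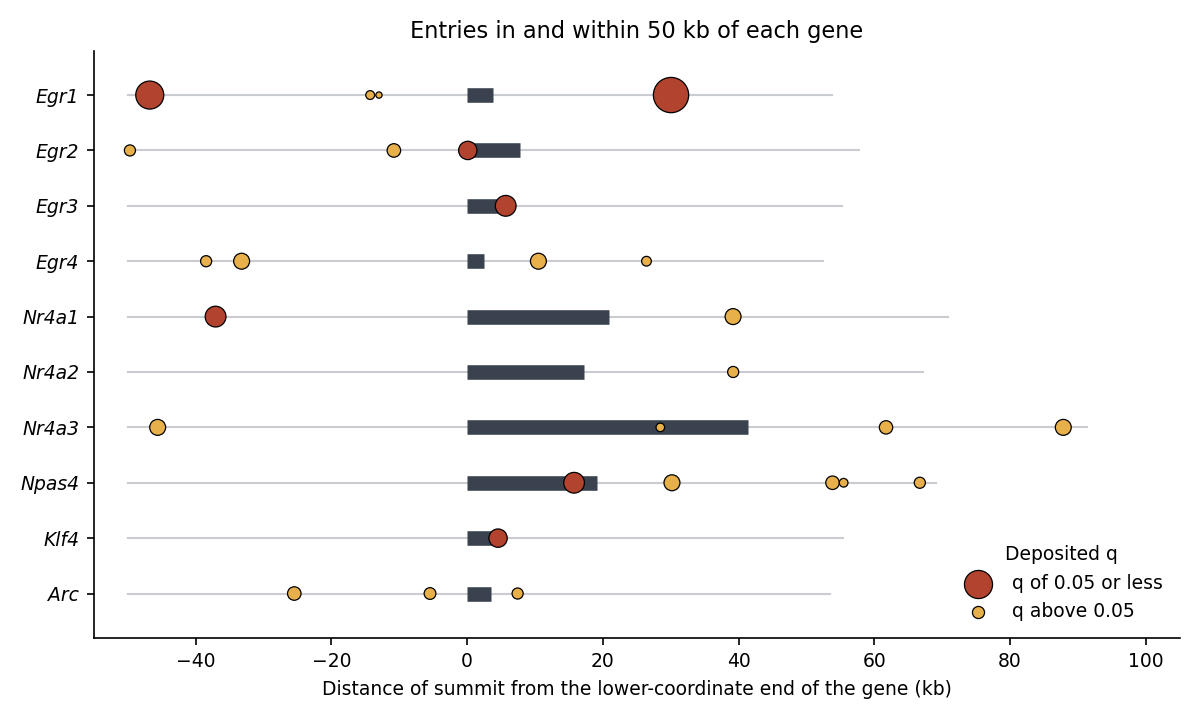
Positions of the 28 entries, in kb from the lower-coordinate end of each gene, with each gene drawn as a dark bar to scale and the grey line marking its window. Marker area grows with fold enrichment and red marks a deposited q of 0.05 or less. The largest markers belong to Egr1, and the single entries of Egr3 and Klf4 lie at or beside the gene.

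The entries closest to a gene end belonged to Egr2, Egr3 and Klf4, and they were similar in height. These were the 3 of 10 genes with a summit within 1 kb of either end of the gene, a class that held 8.30% of protein-coding genes. The same 3 genes were already known from these data when the list was examined, so their count is a description. Egr2, a factor best known for its part in myelination and hindbrain patterning, had its summit at 67534563 on chromosome 10, 94 bp inside the lower-coordinate end of the span. The entry ran from 67534475 to 67534718 with a fold enrichment of 3.11, where fold is the authors' value of pileup over control at the summit. A pileup of 17 fragments against a control level of 4.78 was reconstructed there, and the deposited q was 0.039. Egr2 is on the plus strand, so this is the upstream end of the gene. The summit lay 936 bp before the nearest start listed in the RefSeq promoter table, and the long noncoding RNA gene Gm32255 also covered it.

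Klf4 had its single entry from 55531522 to 55531765 on chromosome 4, with the summit at 55531690. Klf4 is on the minus strand, and this summit lay 785 bp downstream of its listed start, inside the gene. Its fold of 3.11, 17 fragments and q of 0.039 were the same as those of Egr2. No other protein-coding gene reached into the Klf4 window. Egr3, a factor required for muscle spindle development, had its single entry from 70082846 to 70083140 on chromosome 14. The summit at 70082998 lay 385 bp outside the higher-coordinate end, with a fold of 3.29, 18 fragments and a q of 0.0208. The strand of Egr3 was not used here, so this end was not called a start or a finish. The 3 summits differed by 1 fragment, which is far less than the counting error of a pileup of this size.

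No entry overlapped a listed promoter window of these genes, a window being 250 bases before to 50 bases after a start in RefSeq on GRCm38.p6. Windows were listed for 7 of the 10 genes (Egr2, Egr4, Klf4, Npas4, Nr4a1, Nr4a2 and Nr4a3) and numbered 11, of which 5 belonged to Egr2. Among protein-coding genes with such a window, 1.46% had one that an entry overlapped, so none among 7 is close to the background. The nearest summits to a listed start were those of Klf4 at 785 bp and Egr2 at 936 bp, followed by Egr4 at 8030 bp and Npas4 at 10138 bp. For Nr4a2 the distance was 22025 bp, for Nr4a1 26238 bp and for Nr4a3 28234 bp. The 11 windows were searched on both strands for 10 motifs. The half-site TGACG of the cAMP response element, bound by CREB, was in 9 of the 11 windows and in at least 1 window of each of the 7 genes, against 23.8% of 21045 windows of protein-coding genes. That share is per window and not per gene, and 3 of the 9 are overlapping Egr2 windows with the same 2 half-sites. The half-site contains a CpG, and the 11 windows ran from 56.0% to 81.7% G+C, against a median of 56.7%. The part of base content was not tested. The full element TGACGTCA, which contains the half-site on both strands, was in none of the 11, against 2.26%. The CArG box, bound by serum response factor, was in 4 of the 5 Egr2 windows and in no other, against 1.54%. Of these 4 windows, 3 overlap one another and share a single CArG box, and the other, from 67537316 to 67537615, has its own. The EGR site GCGNGGGCG was in the windows of Klf4, Nr4a1 and Nr4a2, against 7.60%. The GC box GGGCGG, whose bases can overlap those of the EGR site, was in 7 windows of 6 genes, against 46.7%. TATAAA and the MEF2 site were each in 1 window, that of Nr4a2, against 12.7% and 2.61%. The nuclear receptor element AAAGGTCA (1.32%), the AP-1 site TGANTCA (7.04%) and the ETS site CCGGAAGT (5.20%) were in none of the 11. A match is a string of letters and does not show that a factor was bound.

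A few promoter windows are printed to show the sequence nearest the results, from RefSeq on GRCm38.p6 and 5′ to 3′ on the gene's strand. In those of Klf4, Egr2 and Npas4 the listed start lay 785 bp, 3306 bp and 10138 bp from the nearest summit. The Egr2 window shown is not the nearest to the summit but is one that holds the CArG box. Smim41, a small membrane protein gene in the Nr4a1 window, and Fos, described last, are shown because an entry overlapped their windows. Capitals mark TGACG or its reverse complement, the CArG box and the EGR site.
Klf4 (chr4:55532426-55532725, minus strand): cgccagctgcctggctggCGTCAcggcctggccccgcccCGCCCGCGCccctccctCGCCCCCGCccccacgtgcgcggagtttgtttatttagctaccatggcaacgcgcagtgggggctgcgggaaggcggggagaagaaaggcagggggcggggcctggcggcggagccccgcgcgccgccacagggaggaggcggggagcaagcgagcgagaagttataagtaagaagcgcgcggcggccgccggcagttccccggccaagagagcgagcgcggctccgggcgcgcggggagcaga
Egr2 (chr10:67537619-67537918, plus strand): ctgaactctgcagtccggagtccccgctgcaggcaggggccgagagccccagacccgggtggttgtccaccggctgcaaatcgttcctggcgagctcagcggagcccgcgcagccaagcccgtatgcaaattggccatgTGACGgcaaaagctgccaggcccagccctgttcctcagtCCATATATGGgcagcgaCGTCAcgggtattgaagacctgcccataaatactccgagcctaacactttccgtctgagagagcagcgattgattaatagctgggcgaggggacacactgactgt
Npas4 (chr19:4989922-4990221, minus strand): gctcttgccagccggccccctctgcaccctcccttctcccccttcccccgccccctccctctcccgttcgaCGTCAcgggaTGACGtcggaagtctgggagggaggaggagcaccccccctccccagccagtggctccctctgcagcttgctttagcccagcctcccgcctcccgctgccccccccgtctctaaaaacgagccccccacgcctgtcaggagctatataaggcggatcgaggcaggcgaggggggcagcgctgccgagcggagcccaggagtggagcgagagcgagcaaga
Smim41 (chr15:101292975-101293274, plus strand): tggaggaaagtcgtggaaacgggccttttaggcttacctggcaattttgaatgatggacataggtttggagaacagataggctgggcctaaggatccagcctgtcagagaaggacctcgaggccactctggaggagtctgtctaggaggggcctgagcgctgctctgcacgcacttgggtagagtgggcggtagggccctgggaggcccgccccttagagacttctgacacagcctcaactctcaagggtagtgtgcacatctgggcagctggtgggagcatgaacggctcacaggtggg
Fos (chr12:85473640-85473939, plus strand): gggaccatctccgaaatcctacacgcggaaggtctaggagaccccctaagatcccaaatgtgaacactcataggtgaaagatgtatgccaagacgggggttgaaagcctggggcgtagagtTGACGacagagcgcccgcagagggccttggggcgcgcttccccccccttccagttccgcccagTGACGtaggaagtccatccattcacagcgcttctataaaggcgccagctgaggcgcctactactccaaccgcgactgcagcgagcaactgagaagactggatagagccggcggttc

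The windows printed for Klf4, Egr2 and Npas4 lie outside every entry, whereas 250 of the 300 bases of the Smim41 window and all 300 of the Fos window lie inside one. The Klf4 window held 1 half-site and 2 EGR sites and was 74.3% G+C. The Egr2 window held 2 half-sites around the CArG box at 60.0% G+C, and the Npas4 window held 2 half-sites at 69.3% G+C. The Smim41 window, at 58.0% G+C, had no letters to capitalise. The median window of protein-coding genes was 56.7% G+C.

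The 2 highest folds of the 28 entries lay in the flanks of Egr1, while the gene itself held no summit. Egr1, a zinc finger factor widely used as a marker of recently active neurons, lies at 34861207 to 34864956 on chromosome 18. Its highest entry ran from 34891116 to 34891371, with the summit 26291 bp past the higher-coordinate end of the gene and 11538 bp from Etf1, a translation release factor gene. Its fold was 4.32, with 24 fragments against a control level of 4.78 and a q of 2.99e-05. Of the 35505 entries on the chromosomes 24 had a higher fold. Among protein-coding genes, 0.388% had an entry of at least this fold within 50 kb. A second entry, from 34814352 to 34814599, lay inside Kdm3b, a histone demethylase gene, 46767 bp from the other end of Egr1. It had a fold of 3.80, 21 fragments and a q of 0.00162, and 1.24% of the list reached that fold. The remaining entries were low and close together, 1294 bp apart at the end of Reep2, a gene for an endoplasmic reticulum shaping protein. The first of them, 546 bp inside Reep2, had a fold of 2.43 with 14 fragments and a q of 0.213. The other, 748 bp outside Reep2 and 12996 bp from Egr1, had a fold of 2.25 with 12 fragments and a q of 0.405. The distance from Egr1 does not show which gene, if any, the 2 high entries act on.

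Egr4 and Arc had several entries, none of them with a q of 0.05 or less. Egr4, an early gene of the same zinc finger family, lies at 85511121 to 85513589 on chromosome 6, on the minus strand. Its nearest entry, from 85521565 to 85521754, was 8030 bp upstream with a fold of 2.94, 16 fragments and a q of 0.0675. Another was 23954 bp upstream, with a fold of 2.49 and a width of 369 bp. The 2 on the downstream side lay 5232 bp apart inside Fbxo41, a neuronal F-box protein gene, with folds of 2.94 and 2.59. The one of fold 2.59 was 438 bp wide, one of 2 entries of 400 bp or more among the 28. In the whole list, 3.17% of entries were that wide.

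Arc lies at 74669081 to 74672570 on chromosome 15, and its 3 entries were all outside the gene. The nearest, from 74676230 to 74676556, lay 3947 bp past the higher-coordinate end within the noncoding gene Gm32994. Its fold was 2.59, with 14 fragments and a q of 0.177. The next lay 5472 bp past the other end, with a fold of 2.64, 17 fragments and a q of 0.106. Its control level of 5.82 was above the usual 4.78, which is why more fragments gave a similar fold. The third, 25474 bp away, had a fold of 2.77 with 15 fragments and a q of 0.110. All 3 folds of Arc were at or below the median of the list.

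The NR4A genes Nr4a1, Nr4a2 and Nr4a3 had 2, 1 and 4 entries, with folds from 2.41 to 3.29. Nr4a1, a nuclear receptor induced in many cell types, lies at 101253902 to 101274795 on chromosome 15. One of its entries lay 37070 bp upstream of the span, 3148 bp from Acvr1b, an activin receptor gene, with a fold of 3.29, 18 fragments and a q of 0.0208. The other, from 101293025 to 101293459, was 18289 bp downstream with a fold of 2.94, 16 fragments and a q of 0.0675. That entry was 435 bp wide and covered most of the Smim41 window printed above, its summit lying 141 bp before the listed Smim41 start. Nr4a2, which is required for the development of midbrain dopamine neurons, lies at 57106830 to 57124003 on chromosome 2. It had 1 entry, 22025 bp upstream in the noncoding gene BB557941, with a fold of 2.59, 14 fragments and a q of 0.177.

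Nr4a3 lies at 48045078 to 48086447 on chromosome 4 and is the longest of the 10 genes, at 41.37 kb. It held 1 summit, at 48073539, with a fold of 2.41, 17 fragments over a control level of 6.46 and a q of 0.177. That control level was the highest among the 28 entries. Its flanking entries lay 45603 bp upstream, with a fold of 2.94, and 20350 bp and 46470 bp downstream, with folds of 2.76 and 2.94. The farthest was inside Stx17, a syntaxin gene of autophagosome fusion. None of the 4 had a q of 0.05 or less. The NR4A windows together held 1.84 entries per 100 kb (95% exact Poisson interval 0.742 to 3.80). The EGR windows held 2.86 (1.48 to 5.00), and those of Npas4, Klf4 and Arc together 2.74 (1.26 to 5.21). These intervals overlap widely, cover counting error only and treat entries as independent.

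Npas4, a factor that in neurons is induced almost only by depolarisation, had the highest density of entries of the 10, at 4.20 per 100 kb against 1.54 over chromosome 19. Its strongest entry ran from 4999920 to 5000230, with a fold of 3.28, 18 fragments and a q of 0.0208. The summit at 5000109 is inside the RefSeq span of 4984353 to 5003439. Npas4 is on the minus strand, and the summit is 10138 bp upstream of its single listed start at 4989971. The other 4 entries were all on the upstream side. The nearest of these was 11092 bp from the span with a fold of 2.94 and 16 fragments. Next came a pair 1639 bp apart at B4gat1, a glycosyltransferase gene, with folds of 2.77 and 2.42. The last, 47614 bp away in Rin1, a Ras effector gene, had a fold of 2.59. No entry lay within 50 kb on the downstream side of Npas4. The Npas4 window held parts of 6 other protein-coding genes, the most of the 10, and 18.0% of protein-coding genes had 5 or more entries.

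Where strand was used, in 7 genes, 11 of the entries outside the gene were upstream and 5 downstream, with 4 of the 11 from Npas4 alone. The same split was not counted over all protein-coding genes, and entries near the same gene are not independent. These counts therefore do not show an upstream preference. At the edge of the 50 kb window, the farthest entry inside lay 49690 bp from Egr2, with a fold of 2.59, and the nearest outside lay 51738 bp from Npas4, with a fold of 1.85.

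Apart from the high entries of Egr1, the folds were those of the list. The median fold was 2.77 over the 28 entries (quartiles 2.59 and 2.98) and 2.77 over the 35505 (quartiles 2.49 and 2.94). The pileup at the summit ran from 12 to 24 fragments with a median of 16, against a median of 15 in the list. The control level was the most common one of 4.78 at 22 of the 28 (78.6%), against 71.1% of the list. A fold at these sites is therefore a count of fragments over a shared level. The authors' q was 0.05 or less at 7 of the 28 entries (25.0%), against 23.4% of the list. At the common control level that took 17 fragments or more. These 7 entries belonged to 6 of the 10 genes, with 2 at Egr1 and 1 each at Egr2, Egr3, Nr4a1, Npas4 and Klf4. Of protein-coding genes, 42.2% had such an entry in the gene or within 50 kb. The median width was 244 bp, against 222 bp in the list, and 7 of the 28 (25.0%) had the minimum width of 190 bp, against 22.4%.

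**Figure D2:**
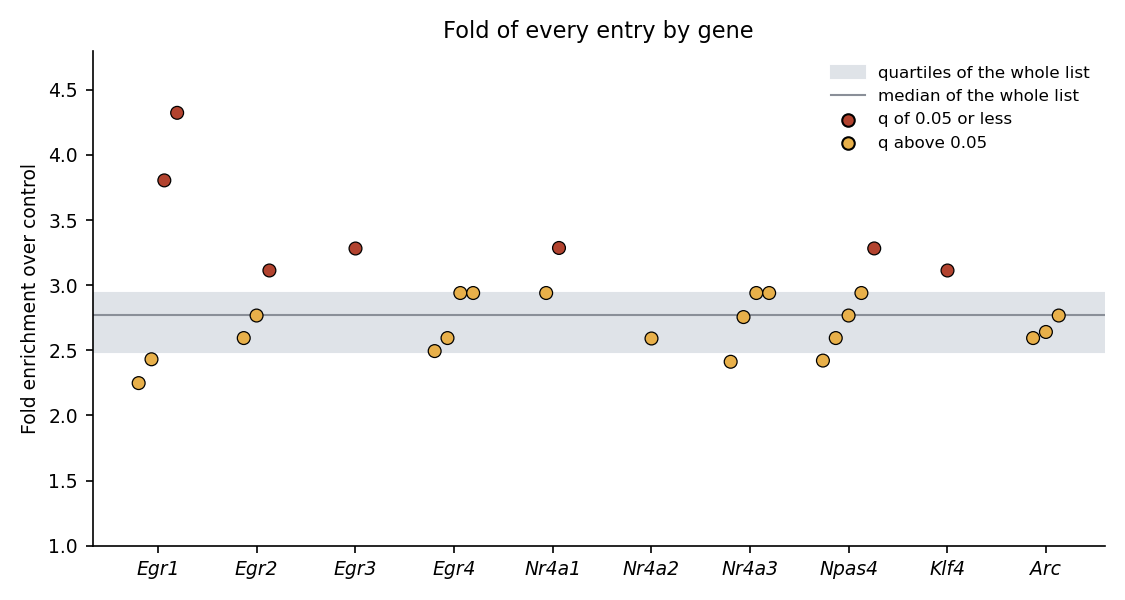
Authors' fold enrichment over control for each of the 28 entries, by gene, with red for a deposited q of 0.05 or less; the band and line give the quartiles and median of the whole list. Egr1 has the folds of 4.32 and 3.80 and also the lowest, 2.25, while Arc and Nr4a2 have none above the median of 2.77.

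The windows held 28 entries in 1126.7 kb, or 2.49 per 100 kb (95% exact Poisson interval 1.65 to 3.59). Windows of all protein-coding genes, drawn in the same way, held 1.79 per 100 kb, inside that interval. These windows overlap, so an entry near several genes, and the stretch around it, was counted for each of them. Single windows varied from 0.853 per 100 kb at Nr4a2 and 0.949 at Klf4 to 3.86 at Egr1, 3.90 at Egr4 and 4.20 at Npas4. In 7 of the 10 genes the density was above that of the gene's own chromosome, and it was below it at Egr3, Nr4a2 and Klf4. The same count was not made over all protein-coding genes. Their overlapping windows are also denser than the chromosomes, at 1.79 against 1.39 per 100 kb over the whole list. Whether 7 of 10 is usual among genes was therefore not measured. The median number of entries was 3 per early gene and 2 per protein-coding gene (quartiles 1 and 4). At 4 or more were 4 of the 10 genes, against 28.1% of protein-coding genes. The early genes are shorter, with a median span of 6530 bp against 17329 bp, and their windows held a median of 2 other protein-coding genes, against 3. Whether gene content has a part in the density was not tested.

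**Figure D3:**
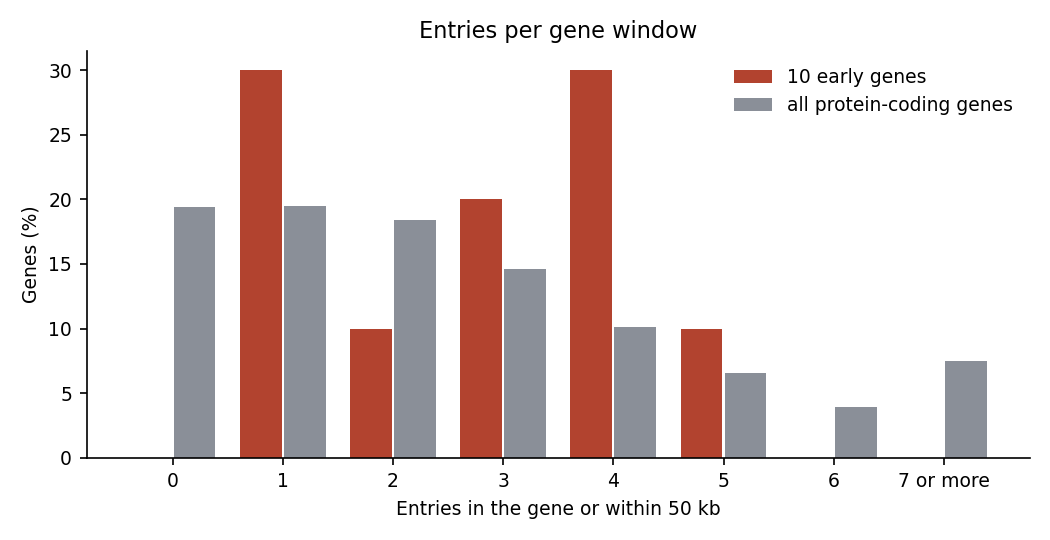
Share of genes (%) by the number of entries in the gene or within 50 kb, for the 10 early genes in red and all protein-coding genes in grey. The early genes spread over 1 to 5 entries, within the range of the other genes, and none is at 0, where 19.4% of protein-coding genes lie.

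The density of entries was also read by distance from the gene. It was 3.16 per 100 kb inside the early genes, from 4 entries, against 1.71 inside all protein-coding genes. Inside means within the RefSeq span, and the summits in Egr2 and Npas4 lay 936 bp and 10138 bp upstream of the nearest listed start. From 0 to 5 kb outside the density was 2.00 per 100 kb, from 2 entries, against 1.87. From 5 to 10 kb it was also 2.00, against 1.81. In each 10 kb step from 10 to 50 kb it was 2.50, from 5 entries a step, against 1.80 to 1.85. Each Poisson interval contained the value for all protein-coding genes.

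**Figure D4:**
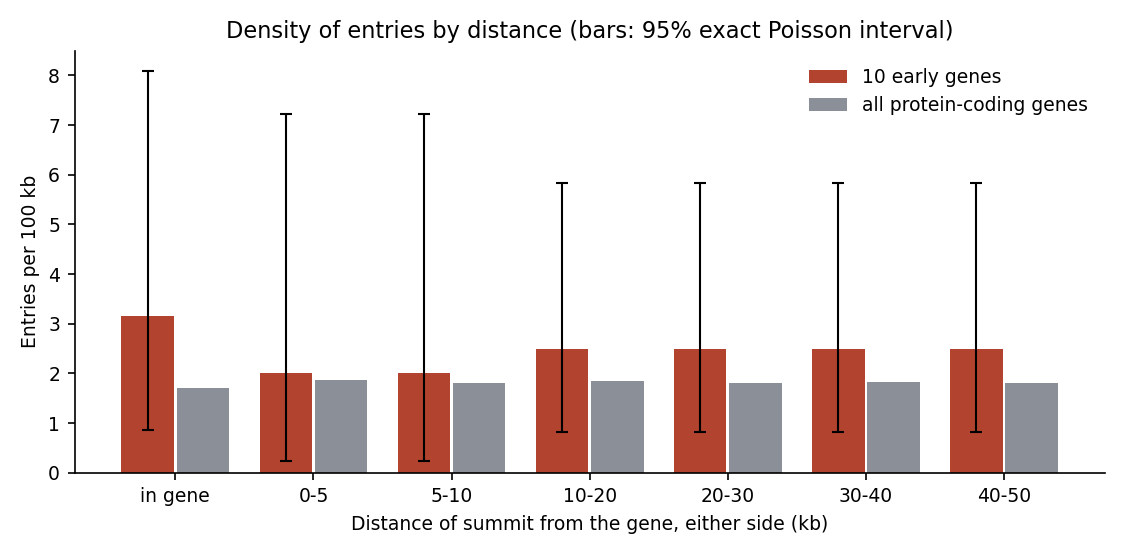
Entries per 100 kb by distance of the summit from the gene on either side, for the 10 early genes in red and all protein-coding genes in grey; error bars are 95% exact Poisson intervals on the early genes' counts. The intervals are wide, from 0.861 to 8.09 inside the genes, and each includes the grey bar.

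Genes that act with these 10 were described from 4 lists. A list of 30 other early genes did not include Fos, which is described last. Of these 30, 27 (90.0%) had an entry within 50 kb. A summit lay inside 9 (30.0%) and within 1 kb of an end in 3 (10.0%). The 3 were Dusp5, a MAP kinase phosphatase gene, with a fold of 3.29 at that end, Rasl11a with 2.94 and Csrnp1 with 2.59. The highest folds inside these 30 genes were 3.63 in Homer1, a postsynaptic scaffold gene, and 3.45 in Amigo3. Nfil3 (3.11), Per1 (2.77), Dusp4 (2.20) and Klf10 (2.03) also held a summit. Set beside the 2.49 entries per 100 kb of the 10 genes, the windows of the other early genes held 2.70. Those of the lists described next held 2.33 (upstream regulators), 2.14 (partners and corepressors) and 1.72 (related transcription factors), against 1.79 for all protein-coding genes.

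Of 16 upstream regulators of early transcription, 15 (93.8%) had an entry within 50 kb, 10 (62.5%) held a summit and none had one within 1 kb of an end. Mrtfb, a coactivator of serum response factor, had the highest fold at 3.46. Crebbp, Crem, Mef2c and Mrtfa followed at 3.11, Crtc1 and Ep300 at 2.77, Mef2d at 2.59, Mef2a at 2.20 and Elk3 at 2.10. Of 14 partner and corepressor genes, 13 (92.9%) had an entry within 50 kb, 10 (71.4%) held a summit and none had one within 1 kb of an end. Camk2b, a calcium-dependent kinase subunit that binds Arc, reached 3.98. Sh3gl3 and Dnm3, genes of endocytosis, had 3.57 and 3.55. Arnt2, which encodes a dimer partner of Npas4, and Dnm2 had 3.29. Nab2, a corepressor of the EGR factors, had 2.68, while Rxra and Sh3gl1 had 2.94, Camk2a 2.76 and Arnt 2.22. Of 12 related transcription factor genes, 12 had an entry within 50 kb, 5 (41.7%) held a summit and none had one within 1 kb of an end. They were led by Npas3 with 4.15 and Klf13 with 3.63, followed by Npas2 (3.29), Klf7 (2.93) and Npas1 (2.05). Each fold is the highest of a gene, and the summits inside numbered 18, 3, 6, 1 and 1 in that order. The median span was 64807 bp in the regulator list, 62860 bp in the partner list and 44508 bp in the related factor list. It was 17329 bp over all protein-coding genes. The part of gene length in the shares with a summit inside, and in the highest folds, was not tested.

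**Figure D5:**
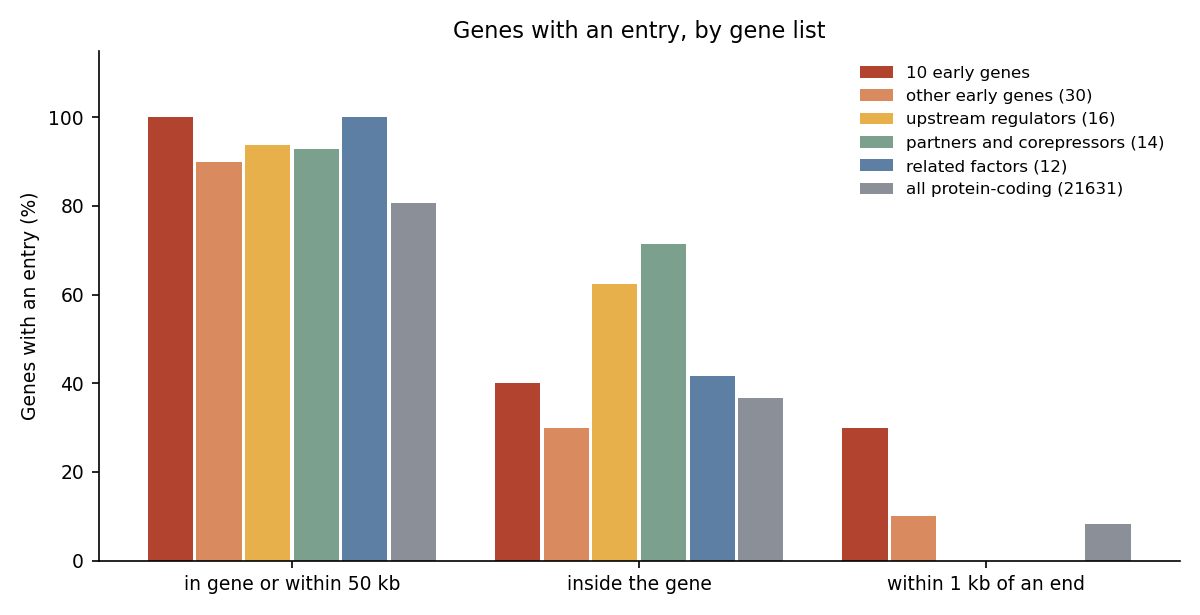
Share of genes (%) with an entry in the gene or within 50 kb, inside the gene and within 1 kb of an end, for the 10 early genes, 4 related lists and all protein-coding genes. At gene ends the 10 early genes are at 30%, the other early genes (a list without Fos) at 10.0% and the remaining 3 lists at 0, against 8.30% of protein-coding genes.

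Fos, the early gene with the highest fold in the list, was set beside the 10 genes. It had 3 entries in its window, within the range of 1 to 5 among the 10. The Fos entry over the promoter printed above had a fold of 49.6 and a width of 1664 bp, with its summit 121 bp past the start. The highest of the 10 genes' 28 folds was 4.32. The second highest fold of the whole list, after that of Fos, was 4.84, so the gap to Fos is not particular to these 10 genes. The other Fos entries had folds of 2.05 and 2.14, lower than any of the 28. They had 13 and 15 fragments over control levels of 5.82 and 6.46, above the usual 4.78. No test was made of the difference between Fos and the 10 genes, since each value is a single number from a pooled list.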

How the data were processed

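The only deposited file was a narrowPeak list pooled by the authors over libraries, per the file name; which libraries entered it, and with what settings peaks were called, is not given in the sources used here. The submitters' processing notes name FastQC, Trimmomatic, BWA, SAMtools and MACS2, with builds mm10 and GRCm38.p6. Fold enrichment (a linear ratio over control) and the −log10 p and −log10 q per peak are the authors' deposited values, identified by column order. The deposited display score was not used. The smallest deposited −log10 p was 2.00. Depth per library is unknown, and nothing says whether libraries came from separate cultures.

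Summits were made 1-based. The 34 entries on scaffolds were left out of shares and backgrounds. Pileup and control level were solved from fold, taken as (pileup + 1) over (control + 1), and a Poisson p, within 0.002 of the deposited −log10 p. The solution was unique for 35502 of 35505 entries (99.99%). That step and the counting of summits in windows were tested on simulated data. Spans came from RefSeq genes of GRCm38.p6, and strand and starts from the RefSeq promoter table. Exons, introns and the sequence under entries were not analysed here. Counts over the 10 genes are given beside the same counts over protein-coding genes, with no test, because the list is a single pooled result. Poisson intervals cover counting error only. The genes, related lists, motifs and settings were chosen with earlier results of these data known. Named genes were the 10, genes at or nearest their entries, and members of the related lists with a summit in the gene or within 1 kb of an end. Smim41 and Fos promoters were chosen for print after their values were seen. Analyses used Python 3.11.15, pandas 2.3.3, numpy 2.4.6, scipy 1.17.1 and matplotlib 3.10.9.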

Additional observations from a re-analysis of the deposited data

How the results depend on the processing

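Of 43 results recomputed under other settings, 35 stayed within 1.5 times the reported value. In some of these only the background changed, so the value for the 10 genes could not move. Stricter cuts and smaller windows can only lower a count, so the tally is not a measure of robustness. Entries with q of 0.05 or less numbered 7 near 6 of the genes, or 0.621 per 100 kb, against 0.431 for all protein-coding genes. Keeping folds at or above the list's median left 16 entries, or 1.42 per 100 kb, against 0.965. Windows of 20 kb held 13 entries and windows of 100 kb held 63. The wider windows had 2.96 per 100 kb (95% exact Poisson interval 2.28 to 3.79), against 1.78 for all protein-coding genes, so there the interval lay above the background, which it did not at 50 kb (2.49, 1.65 to 3.59). Entries that lie near each other make such an interval too narrow, and the cause was not tested. Within 5 kb of an end were 5 of the 10 genes, against 29.4%. With q of 0.05 or less, Egr2, Egr3 and Klf4 each had a summit within 1 kb of an end (3 of 10), against 2.10%. At the common control level that cut took 17 fragments, and these summits had 17, 18 and 17, so they lie at its edge. As the same 3 genes were known beforehand, the count is a description. Against genes no longer than Nr4a3, a background chosen after seeing the data, the share with a summit inside was 23.0%. No paired analysis was possible because the list is pooled, and for the same reason no replicate could be left out. Pileups of 12 to 24 fragments limit what can be said of any single entry.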
